A study of Mus musculus with 13 samples.

Results

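The macrophage enzymes and transporter that handle arginine were examined in a map of H3K27ac, the acetylation of lysine 27 on histone H3 that marks active promoters and enhancers. The genes were Nos2, Arg1, Arg2, Ass1 and Slc7a2. Of the 40691 regions in the authors' consensus table, 14 were taken, because they overlap the body of 1 of these 5 genes or have it as the nearest protein-coding gene within 100 kb. Nos2 had 5 such regions, Arg1 had 4, Ass1 and Slc7a2 had 2 each, and Arg2 had 1. Within a gene the regions are numbered by rising coordinate. None of the 14 was also assigned to another protein-coding gene.

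H3K27ac was measured by chromatin immunoprecipitation and sequencing, with the antibody Abcam ab4729, in macrophages grown for 5 days from mouse bone marrow in medium conditioned with M-CSF, a macrophage growth factor. All cells were IL10-/-RAG2-/- on the 129S6/SvEvTac strain, so that the controls, too, lack the gene for IL-10 and come from animals that form no mature T or B cells. The 12 libraries made 4 groups of 3, and the series describes 3 independent pools of macrophages, although no label ties a replicate number to a pool. The late IL-10 group had lipopolysaccharide (LPS, a bacterial membrane component sensed by macrophages) at 1 ng/mL for 195 min. In that group IL-10, an anti-inflammatory cytokine, was present in the last 30 min. The continuous IL-10 group had LPS and IL-10 at 1 ng/mL, both for 195 min. The LPS group had 1 ng/mL LPS alone for 195 min, and the untreated group had neither. The IL-10 dose of the late IL-10 group is not repeated in the labels, and neither the animals' age nor the number of animals in a pool is given there. The contrasts ask how LPS changes H3K27ac and whether IL-10, given throughout or late, changes it further.

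Arginine enters the cell through cationic amino acid transporters such as CAT2, the product of Slc7a2. NOS2, the inducible nitric oxide synthase, turns arginine into nitric oxide and citrulline, and ASS1, argininosuccinate synthetase, carries out the first step in turning citrulline back into arginine. The arginases ARG1, in the cytosol, and ARG2, in mitochondria, split arginine into ornithine and urea. Mouse macrophages are known for inducing Nos2 in response to LPS and Arg1 in response to IL-4, and IL-10 is known to act through the transcription factor STAT3.

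Reads in the regions numbered from 5149730 to 26922552 per library, and the LPS group held both the lowest total and a library, replicate 3, with 20884182 reads. Every deposited value was a whole number of reads times 1 factor per library, and a value of 1 read was the lowest in each library, so regions at 3 reads or fewer are called at the floor here. A region at the floor is not thereby shown to lack H3K27ac. All 9 macrophage markers had regions, and their summed signal was 35795 to 45932 with late IL-10, 40334 to 45882 with continuous IL-10, 37475 to 54476 with LPS and 40940 to 53648 untreated. With LPS over untreated, Spi1 was higher and Csf1r, Cd68 and Mpeg1 were lower, and none of the 9 was called with IL-10 or between its schedules. Regions were absent for 1 of 6 T cell, 2 of 5 B cell, 2 of 7 neutrophil, 1 of 5 fibroblast and 2 of 4 erythroid and mast cell markers (Gata1 and Hba-a1), while all 5 dendritic cell markers had them. Among these, 4 of 5 T cell markers tested were higher with LPS than untreated, and none was called with IL-10 or between its schedules. The T cell sums were 937 to 1426 with late IL-10, 422 to 497 with continuous IL-10, 822 to 1003 with LPS and 202 to 414 untreated, so that the continuous IL-10 libraries lay below those of both other LPS-treated groups. Of the neutrophil markers, 1 was higher and 2 were lower with LPS than untreated, and Elane and Mmp8 were higher with each IL-10 schedule than with LPS. Ltf was lower with late than with continuous IL-10 (limma log2 change -1.52, adjusted p = 0.0497). The neutrophil sums were 3008 to 3123 with late IL-10, 3624 to 4062 with continuous IL-10, 2351 to 2700 with LPS and 2911 to 4353 untreated. Of the dendritic cell markers 1 was higher and 2 were lower with LPS than untreated, and 1 was lower with continuous IL-10 than with LPS, with sums of 3559 to 8346 with late IL-10, 2964 to 5128 with continuous IL-10, 4008 to 11005 with LPS and 6046 to 8072 untreated. Fibroblast markers had 1 higher and 1 lower with LPS than untreated and none called with IL-10, B cell markers had none called in these contrasts, and Cpa3, the mast cell marker tested, was lower with LPS than untreated and higher with each IL-10 schedule than with LPS. The part of these markers in the results was not tested. In bulk chromatin, more marked cells and more mark per cell cannot be told apart.

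With LPS, H3K27ac at Nos2, Ass1 and Slc7a2 was higher than untreated. Both arginase genes passed the test as lower, but each of these 2 calls was lost in 9 of 12 fits leaving out 1 library, and with edgeR, DESeq2 and median centring. With continuous IL-10, Arg1 was higher than with LPS alone by 2.96 on the log2 scale. A region inside Nos2 that was at the floor with LPS alone carried clear signal with both IL-10 schedules. Neither IL-10 schedule gave a region of the 5 genes that passed the test for a lower level than LPS alone. The plot of summed signal shows these courses library by library.

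**Figure D1:**
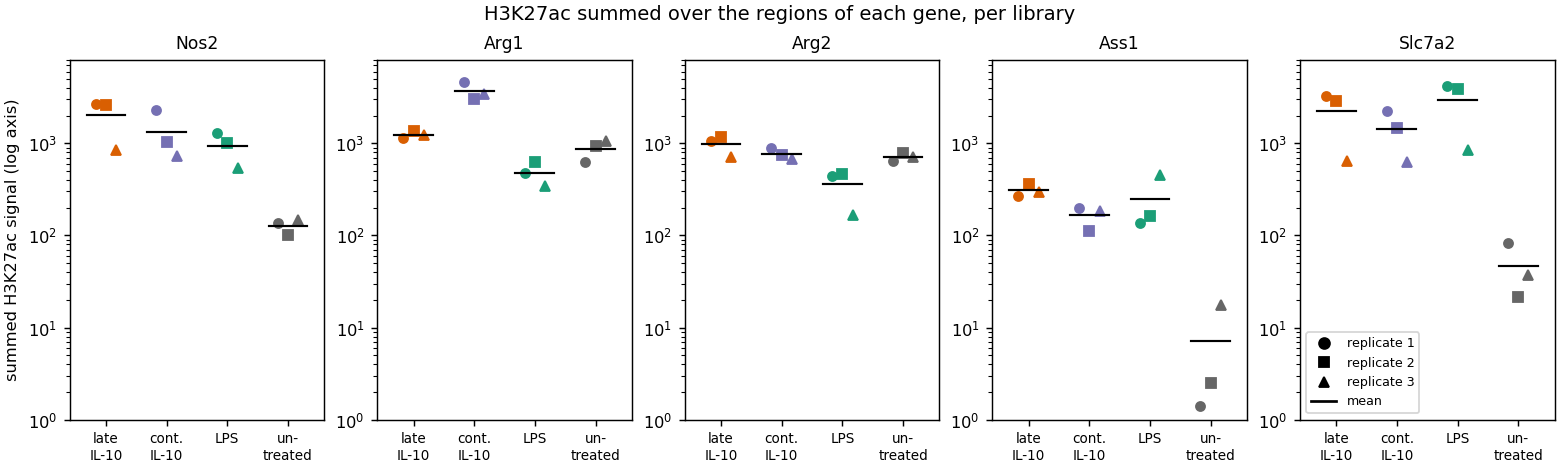
Summed H3K27ac signal (log axis) over the regions of each gene in each of the 12 libraries, by group, with replicates as symbols and the mean as a line. Untreated libraries lie below all LPS libraries at Nos2, Ass1 and Slc7a2, and continuous IL-10 libraries lie above all LPS libraries at Arg1, where the means are 3705 and 481.

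Across the 36621 regions that passed a filter on low values, limma on log2(value + 1) with Benjamini-Hochberg adjustment gave the calls, at an adjusted p under 0.05. Of the 14 regions 13 passed the filter, and the exception was Ass1 region 2, which lies within the gene and was at 1 read in all 12 libraries. With LPS over untreated, 4 of the 13 were higher, where the background was 16.5% of all regions, and 2 were lower, where it was 17.9%. Summed per gene, 3 of the 5 genes were higher, against a background of 14.2%, and 2 were lower, against 13.3%. With continuous IL-10 over LPS, 5 of 13 regions were higher (background 3.28%) and none was lower (background 3.24%). The 5 were the 4 Arg1 regions and Nos2 region 5, so this count rests on 2 genes. Of them, Nos2 region 5 passed the filter only through its IL-10 libraries, and Arg1 regions 3 and 4 mainly through theirs. The counts of higher regions in both IL-10 contrasts thus hold regions admitted through the groups in which they are high. Regions of 1 gene are not independent of each other. For that contrast 1 of 5 gene sums was higher (background 2.59%) and none was lower (background 3.17%). With late IL-10 over LPS, 4 of 13 regions were higher (background 3.14%) and none was lower (background 0.396%), and 2 of 5 gene sums were higher (background 3.19%). Both IL-10 contrasts use the same 3 LPS libraries, so their values are not independent of each other. The median log2 change of the 13 regions was 1.70 for LPS over untreated, where that of all regions was -0.06. It was 1.23 for continuous IL-10 over LPS and 0.99 for late IL-10 over LPS, where the medians of all regions were 0.02 and -0.12. At an unadjusted p under 0.05, none of the 13 was lower in either IL-10 contrast, and neither edgeR nor DESeq2 on the recovered reads called one lower.

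**Figure D2:**
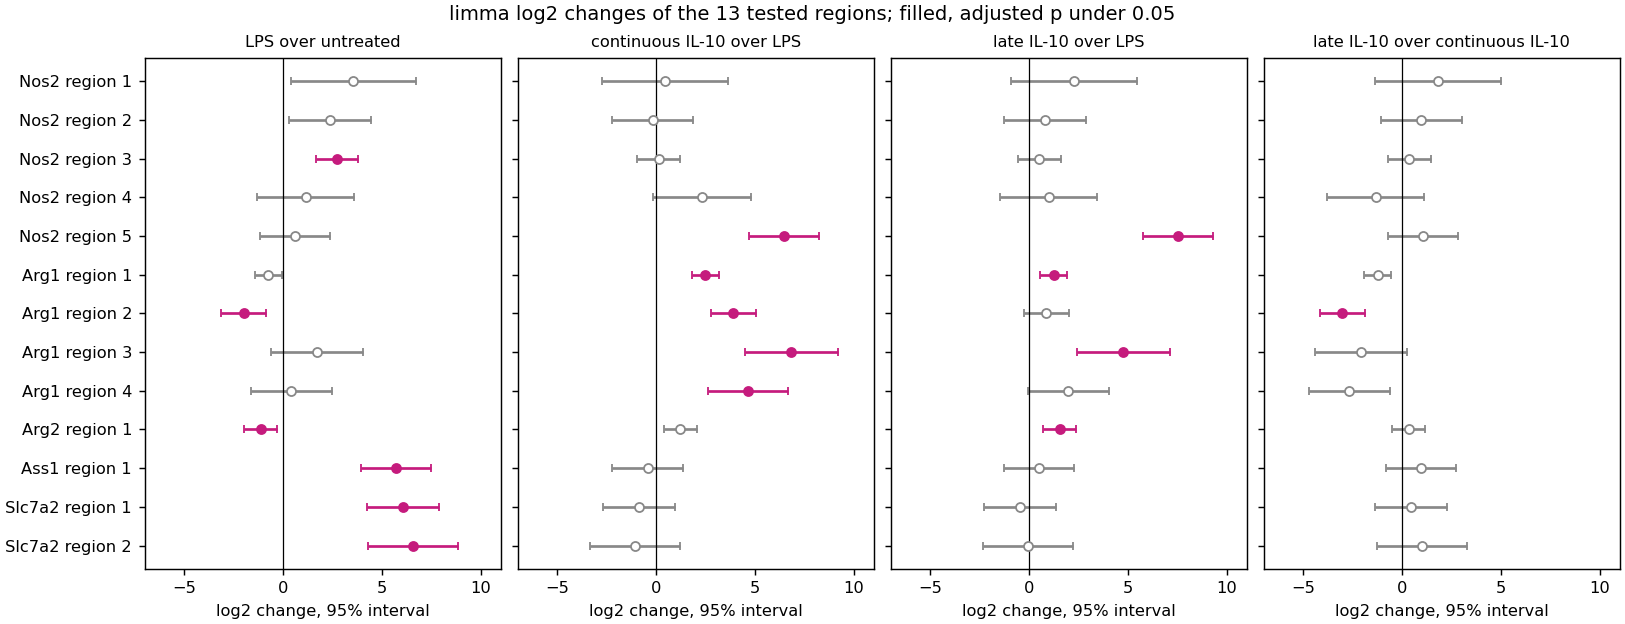
The limma log2 change with its 95% interval for the 13 tested regions in the 4 contrasts, filled where the adjusted p is under 0.05. The filled points show 4 higher and 2 lower regions with LPS over untreated, 5 higher with continuous IL-10 over LPS, 4 higher with late IL-10 over LPS and 1 lower with late over continuous IL-10.

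Slc7a2, the arginine transporter gene, was higher with LPS in both of its regions. Slc7a2 region 1, chr8:40847152-40866844 in mm10, covers the low-coordinate end of the gene body, and region 2, chr8:40887736-40895420, lies inside it. The value of region 1 was 3477, 3322 and 767 in the LPS libraries, against 82.0, 8.82 and 36.4 in the untreated ones. Every LPS library was above every untreated library, and LPS replicate 3 was the lowest of its group. The log2 change was 6.05 ± 0.85 (SE, limma adjusted p = 1.61e-04). Region 2 had 659, 538 and 78.8 with LPS, against 0.71, 12.6 and 0.42 untreated, where 2 of 3 libraries were at the floor. The groups did not overlap there either, and the limma log2 change was 6.57 ± 1.05 (adjusted p = 4.20e-04). The summed signal averaged 2947 ± 1825 with LPS and 47.0 ± 31.9 untreated (SD, n = 3 each).

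IL-10 libraries overlapped with LPS libraries at Slc7a2. Region 1 had 2659, 2453 and 542 with late IL-10 and 1951, 1321 and 554 with continuous IL-10, against the LPS values above. Region 2 had 565, 432 and 100 with late IL-10 and 282, 146 and 73.9 with continuous IL-10. Within each replicate number, the continuous IL-10 sum was below the LPS sum in 3 of 3, with log2 ratios of -0.89, -1.40 and -0.43, and the late IL-10 sum was below it in 3 of 3, with ratios of -0.36, -0.42 and -0.40. The limma change of the sum was -0.90 for continuous IL-10 over LPS, with a 95% interval of -2.54 to 0.73 and an adjusted p of 0.646. For late IL-10 over LPS it was -0.39, with an interval of -2.03 to 1.24 (limma adjusted p = 0.973). With the replicate number as a block the SE of these changes was 0.44, and the adjusted p was 0.198 for continuous IL-10 and 0.695 for late IL-10.

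Nos2 lies at chr11:78920787-78960226 in the RefSeq table for GRCm38.p6, the assembly of mm10. Regions 1 and 2 stand outside it at its low-coordinate side, 13842 and 12873 bp away. Region 3, chr11:78908569-78925514, runs over the low-coordinate end of the gene, and regions 4 and 5 lie within it. Region 3 held most of the signal, on average 92.9% of the Nos2 sum with LPS and 97.3% untreated. Its value was 1102, 955 and 526 with LPS, against 133, 97.1 and 144 untreated. The LPS libraries were all higher, 6.91-fold on the group means, and the limma log2 change was 2.73 ± 0.50 (SE, adjusted p = 0.00109).

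Regions 1 and 2 of Nos2 were at the floor in all untreated libraries and varied widely with LPS. Region 1 had 142, 42.0 and 0.46 with LPS, so that 1 LPS library was itself at the floor and the groups overlapped. The limma log2 change was 3.56, with an adjusted p of 0.0786, and it was not called in 11 of 12 fits leaving out 1 library, with 2.17 (adjusted p = 0.318) without LPS replicate 1. The adjusted p was 0.00973 with the replicate number as a block, 0.0146 with edgeR, 1.16e-04 with DESeq2 and 0.00240 without LPS replicate 3. Region 2 had 39.4, 1.68 and 6.03 with LPS, 1 of them at the floor, and a limma log2 change of 2.37 (adjusted p = 0.0706). It was not called in 11 of 12 fits leaving out 1 library, with 1.30 (adjusted p = 0.305) without LPS replicate 1. The adjusted p was 0.0393 with the block, 0.0480 with median centring, 0.0175 with edgeR, 0.00329 with DESeq2 and 0.0270 without LPS replicate 2.

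With IL-10, signal appeared inside Nos2. Nos2 region 5, chr11:78945275-78956828, had 655, 770 and 234 with late IL-10 and 460, 215 and 129 with continuous IL-10, against 3.94, 1.68 and 0.46 with LPS alone, and it was at 1 read in all 3 untreated libraries. In reads, the late IL-10 libraries had 372, 430 and 264 and the continuous IL-10 libraries 273, 169 and 131, whereas the LPS libraries had 2, 1 and 1. Every library with IL-10 was above every library without it. The libraries without IL-10 had 1 or 2 reads there, so the region passed the filter on low values only through its IL-10 libraries. The separation, tests and ranks here thus describe a region admitted through the groups in which it is high. On group means the region was at least 135-fold higher with late IL-10 and at least 65.2-fold higher with continuous IL-10 than the LPS floor of 3 reads per library. The limma adjusted p was 2.19e-04 for late IL-10 and 8.02e-04 for continuous IL-10 over LPS, and both calls held in all 12 fits that left out 1 library. By size of change the region ranked 29 of 36621 for late IL-10 and 43 for continuous IL-10. LPS replicate 3, the deepest library of the LPS group, was at 1 read there, which is the lowest value in each library. The part of depth in these low values was not tested. Late over continuous IL-10 was 1.07 on the log2 scale (interval -0.71 to 2.84, limma adjusted p = 0.581).

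The other Nos2 regions did not pass the test with IL-10. Region 3 had 1722, 1621 and 568 with late IL-10 and 1705, 758 and 566 with continuous IL-10, both ranges overlapping the LPS range. Its limma log2 change was 0.51 for late IL-10 (interval -0.58 to 1.59) and 0.13 for continuous IL-10 (interval -0.95 to 1.22). Region 1 had 220, 197 and 21.3 with late IL-10 and 75.9, 21.6 and 11.8 with continuous IL-10. Region 4, inside the gene, had 51.1, 3.58 and 0.89 with late IL-10 and 26.98, 16.5 and 13.8 with continuous IL-10, against 13.8, 1.68 and 0.46 with LPS. At region 4 the lowest continuous IL-10 library stood just above the highest LPS library, with a limma adjusted p of 0.286. As a share of the Nos2 sum, region 5 held on average 27.3% with late IL-10 and 19.7% with continuous IL-10, against 0.186% with LPS. The sum itself averaged 2038 ± 1035 with late IL-10, 1341 ± 822 with continuous IL-10 and 945 ± 387 with LPS (SD, n = 3 each), and its limma adjusted p over LPS was 0.483 with late and 0.800 with continuous IL-10.

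**Figure D3:**
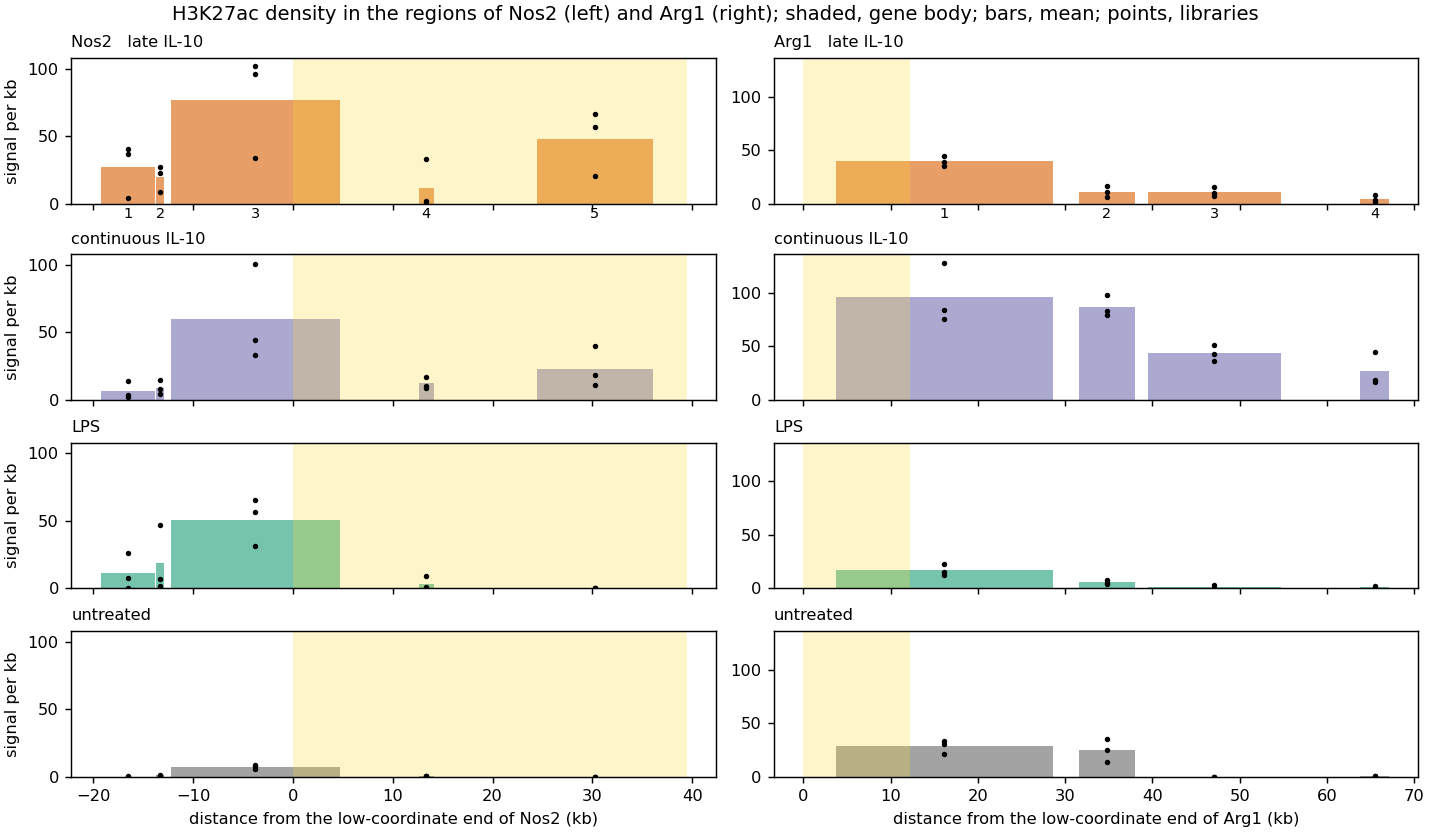
H3K27ac density (signal per kb) in each region along Nos2 and Arg1, by distance from the low-coordinate end of the gene, with the mean as a bar and libraries as points; shading marks the gene body. In Nos2 region 5 the mean is 47.9 per kb with late IL-10 and 23.2 with continuous IL-10, against 0.175 with LPS, and at Arg1 all 4 regions are tallest with continuous IL-10.

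Next to Nos2, the region over Lyrm9, chr11:78855917-78898606, ends 22181 bp from the gene. It is no member and was looked at after the Nos2 values were known. Its signal averaged 2188 ± 1152 with LPS and was at the floor in all untreated libraries, so that it was at least 917-fold higher with LPS (limma adjusted p = 1.43e-07). It averaged 4301 ± 2257 with late IL-10 and 3083 ± 1414 with continuous IL-10, with limma adjusted p of 0.532 and 0.675 over LPS. The neighbour on the high-coordinate side, over Lgals9, passed the test in none of the 4 contrasts.

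Ass1, the citrulline recycling gene, was marked at its start. Ass1 region 1, chr2:31468870-31473036, covers the low-coordinate end of the gene and with it the RefSeq promoter window. Of the 5 genes, Ass1 matched the RefSeq promoter table (GRCm38.p6). The window from 250 bases before to 50 after the start is chr2:31470020-31470319 on the + strand, and it is shown because the region with the LPS change covers it. Capitals mark matches on either strand to the NF-kB letters searched, GGG and CC with any 5 bases between them.
Ass1 promoter: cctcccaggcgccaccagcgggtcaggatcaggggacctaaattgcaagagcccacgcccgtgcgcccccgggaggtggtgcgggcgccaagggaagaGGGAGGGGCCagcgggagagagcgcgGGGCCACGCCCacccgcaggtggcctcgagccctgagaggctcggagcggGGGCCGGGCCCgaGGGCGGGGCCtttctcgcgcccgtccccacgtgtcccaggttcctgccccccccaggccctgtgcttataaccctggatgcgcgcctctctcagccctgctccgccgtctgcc
There were 4 matches on the + strand and 2 on the - strand, and those on the - strand overlap + strand matches, and 50.8% of 32851 promoter windows of this length hold at least 1. The window is 74% G and C. None of the other letters searched on both strands was in it, namely AP-1 TGANTCA (7.81% of windows), STAT TTCNNNGAA (8.30%), the interferon-stimulated response letters, GAAA and GAAA with any 2 bases between them (3.44%), C/EBP TTGCNNAA (10.8%), PU.1 GAGGAAGT (3.20%) and the TATA box TATAAA (13.6%).

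The value of Ass1 region 1 was 136, 161 and 447 with LPS, against 0.71, 1.26 and 17.2 untreated. All LPS libraries were above all untreated ones, of which 2 were at the floor. The limma log2 change was 5.71 ± 0.82 (SE, adjusted p = 2.01e-04). Within the LPS group, replicate 3 had the lowest sum at Nos2, Arg1, Arg2 and Slc7a2, and the highest at Ass1. With IL-10, region 1 had 269, 364 and 292 with late IL-10 and 196, 112 and 183 with continuous IL-10, both overlapping the LPS range. The limma change of the Ass1 sum was 0.51 for late IL-10 over LPS (interval -1.11 to 2.12) and -0.43 for continuous IL-10 over LPS (interval -2.05 to 1.19). All 3 late IL-10 libraries were above all 3 continuous IL-10 libraries, 1.89-fold on the means of region 1, but the limma adjusted p of that contrast was 0.638. The neighbouring region over Hmcn2, 9477 bp from Ass1 and looked at after the values were known, was also higher with LPS, at 2984 ± 286 with LPS and 323 ± 66.3 untreated (limma adjusted p = 1.84e-06).

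Arg1, the cytosolic arginase gene, lies at chr10:24915207-24927470. Region 1, chr10:24918917-24943845, overlaps it and runs past its high-coordinate end. Regions 2, 3 and 4 follow on that side, 19276, 27196 and 51551 bp away. Region 4 is the farthest of the 14 regions from its gene, and the next region on that side, 123822 bp away, falls outside the 100 kb limit. Continuous IL-10 libraries were above LPS and untreated libraries in all 4 regions, and the share of all regions with such a separation was not counted. Regions 3 and 4 were at the floor in most libraries without IL-10, so they passed the filter mainly through libraries with IL-10.

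Arg1 region 1 had 3200, 1885 and 2089 with continuous IL-10, against 386, 568 and 318 with LPS. The lowest continuous IL-10 library was well above the highest LPS library, and the limma log2 change was 2.50 ± 0.32 (SE, adjusted p = 8.05e-04). Region 2 had 629, 509 and 536 with continuous IL-10, against 33.4, 50.4 and 28.3 with LPS. Its libraries, too, were apart, 14.9-fold on the means, with a limma log2 change of 3.90 ± 0.53 (adjusted p = 0.00119). Region 3 had 663, 554 and 783 with continuous IL-10, against 47.2, 1.68 and 0.46 with LPS, where 2 of 3 libraries were at the floor, and the limma log2 change was 6.85 ± 1.08 (adjusted p = 0.00307). Region 4 had 148, 63.5 and 56.2 with continuous IL-10, against 7.87, 1.68 and 0.46 with LPS, a limma log2 change of 4.65 ± 0.95 (adjusted p = 0.0121, and 0.0636 when only those 2 groups were fitted). The 4 calls held in all 12 fits that left out 1 library. Summed, Arg1 averaged 3705 ± 841 with continuous IL-10 and 481 ± 137 with LPS (SD, n = 3 each), 7.70-fold. Its limma log2 change of 2.96 ± 0.29 (adjusted p = 2.28e-04) ranked 9 by p and 131 by size among 13482 genes, and it held under every alternative fit. Within replicate numbers the log2 ratio of the sums was 3.29, 2.27 and 3.31.

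**Figure D4:**
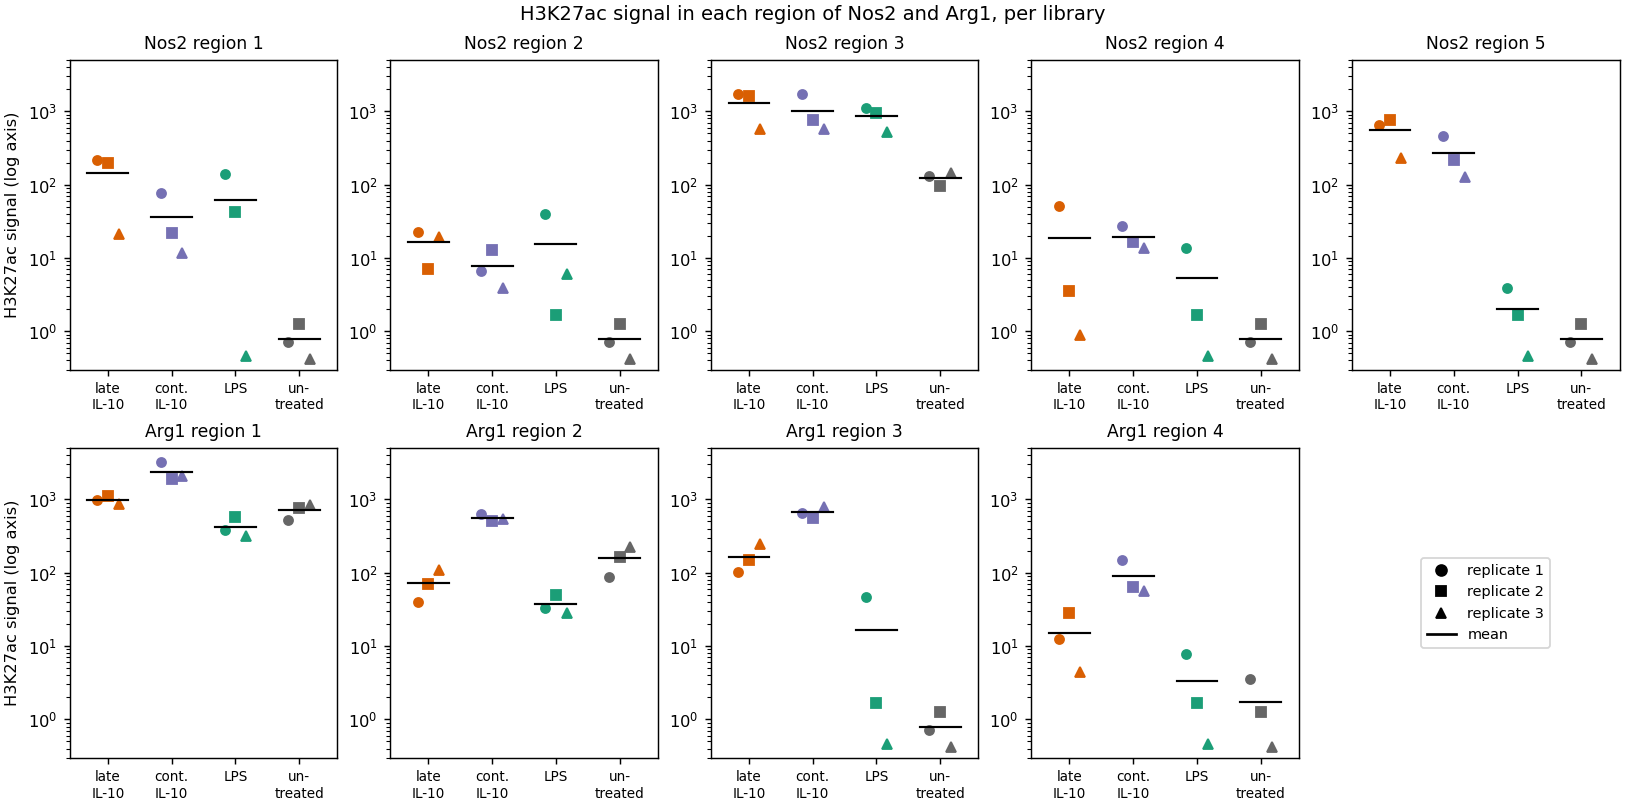
H3K27ac signal (log axis) in each Nos2 and Arg1 region and library, by group, with replicates as symbols and the mean as a line. Nos2 region 5 separates libraries with IL-10, from 129 to 770, from those without, from 0.42 to 3.94, and Arg1 region 3 stands at 554 to 783 with continuous IL-10 while it is at the floor untreated.

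With late IL-10, Arg1 stood between the LPS and continuous IL-10 levels. Region 1 had 983, 1107 and 874 with late IL-10, above all LPS libraries and below all continuous IL-10 libraries. Its limma log2 change over LPS was 1.25 ± 0.32 (adjusted p = 0.0464), which was lost in 10 of 12 fits that left out 1 library, the exceptions leaving out continuous IL-10 replicate 1 or LPS replicate 2, with adjusted p up to 0.169, and with edgeR (0.0825), DESeq2 (0.0599), median centring (0.0636) and no filter (0.0509). Region 3 had 104, 147 and 245 with late IL-10, also above all LPS libraries. Its limma log2 change over LPS was 4.77 ± 1.08 (adjusted p = 0.0260), but the adjusted p was 0.0994 without LPS replicate 2, 0.0649 without LPS replicate 3, 0.0718, 0.0874 and 0.0736 without late IL-10 replicates 1, 2 and 3, and 0.170 with edgeR. Region 2 had 40.5, 69.9 and 108, overlapping the LPS range, and region 4 had 12.3, 28.7 and 4.43. Neither of these passed the test over LPS. The sum averaged 1241 ± 107 with late IL-10, a limma log2 change of 1.40 ± 0.29 over LPS (adjusted p = 0.0159). That adjusted p was 0.0560 without LPS replicate 1, 0.0565 and 0.0802 without late IL-10 replicates 1 and 2, 0.0812 with edgeR and 0.0604 with median centring.

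The schedules were also compared directly. With late over continuous IL-10, 1 of 13 regions was lower, against a background of 0.852%, and none was higher, against 1.86%. At gene level Arg1 was lower, 1 of 5 against a background of 0.668%, and none was higher, against 1.88%. No region or gene of the 5 was higher at an unadjusted p under 0.05, nor with edgeR or DESeq2. Arg1 region 2 was the region called, at 40.5, 69.9 and 108 with late IL-10, against 629, 509 and 536 with continuous IL-10, and the groups did not overlap. Its limma log2 change was -3.02 ± 0.53 (adjusted p = 0.0135). Without continuous IL-10 replicates 2 or 3 the adjusted p was 0.0589 and 0.0521, and without late IL-10 replicates 1 or 2 it was 0.0786 and 0.0568. The Arg1 sum changed by -1.56 ± 0.29 (limma adjusted p = 0.0212), with adjusted p of 0.0689, 0.0779 and 0.0571 without continuous IL-10 replicates 1, 2 and 3, of 0.129 and 0.110 without late IL-10 replicates 1 and 2, of 0.0571 with edgeR, of 0.0695 with median centring and of 0.0584 with only the region that overlaps the gene. At Ltf, the neutrophil marker that was also lower in this contrast, the adjusted p was 0.0497, and its part in the Arg1 difference was not tested. Within replicate numbers the Arg1 sum was lower with late IL-10 in 3 of 3, by log2 ratios of -2.02, -1.15 and -1.49. Region 1 had a limma adjusted p of 0.0547, which was 0.0116 with the replicate block, 0.0485 with DESeq2 and 0.0289 without LPS replicate 3. Region 4 had 0.155, and 0.0351 with the block.

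With LPS alone, Arg1 region 2 was lower than untreated. It had 33.4, 50.4 and 28.3 with LPS, against 87.7, 163 and 227 untreated, without overlap, and a limma log2 change of -1.997 ± 0.53 (adjusted p = 0.0104) that held in all 12 fits leaving out 1 library. Region 1 overlapped between the groups, with 527, 768 and 834 untreated against the LPS values above (limma log2 change -0.76, adjusted p = 0.0817, and 0.0390 with the block or 0.0477 without LPS replicate 2). Region 3 was at the floor untreated, and the 47.2 of LPS replicate 1 was the sole LPS value above it (limma adjusted p = 0.246, but 0.0263 with edgeR, 0.00239 with DESeq2 and 0.0485 without LPS replicate 3). The Arg1 sum was lower with LPS at a limma log2 change of -0.86 ± 0.29 (adjusted p = 0.0443), although LPS replicate 2, at 622, lay just above untreated replicate 1, at 619. This call was lost in 9 of 12 fits leaving out 1 library, the exceptions leaving out continuous IL-10 replicate 1, LPS replicate 2 or untreated replicate 1, with adjusted p up to 0.129. It was also lost with edgeR (0.162), DESeq2 (0.193), median centring (0.127) and only the region that overlaps the gene (0.0964).

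On the low-coordinate side, a region over Med23, chr10:24909896-24912987, lies 2220 bp from Arg1 and was looked at after the Arg1 values were known. It averaged 115 ± 46.4 with continuous IL-10 and was at the floor in all LPS libraries, so that it was at least 28.1-fold higher with continuous IL-10 (limma adjusted p = 0.0145). With late IL-10 it averaged 18.1 ± 15.6, and its limma adjusted p over LPS was 0.449.

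Arg2, the mitochondrial arginase gene, had 1 region, chr12:79129856-79145562, over the low-coordinate 57.9% of the gene body. It had 1069, 1161 and 713 with late IL-10, 880, 756 and 677 with continuous IL-10, 445, 467 and 167 with LPS, and 645, 790 and 704 untreated. The LPS libraries were the lowest 3 of the 12, and LPS replicate 3 was the lowest of all. The limma log2 change of the region was -1.12 ± 0.39 for LPS over untreated (adjusted p = 0.0383) and 1.55 ± 0.39 for late IL-10 over LPS (adjusted p = 0.0426). For continuous IL-10 over LPS it was 1.23 ± 0.39 (adjusted p = 0.0805, 0.0100 with the replicate block and 0.0389 with median centring). Without LPS replicate 3 the adjusted p was 0.104 for LPS over untreated and 0.0768 for late IL-10 over LPS. The Arg2 sum, which holds this region alone, had an adjusted p over all genes of 0.0422 for LPS over untreated, and its call was lost in 9 of 12 fits leaving out 1 library, with adjusted p up to 0.119, and with edgeR (0.224), DESeq2 (0.246) and median centring (0.149). The LPS call of the region was lost in 6 of 12 such fits, namely each untreated replicate, LPS replicate 3, continuous IL-10 replicate 2 and late IL-10 replicate 1. The late IL-10 call was lost in 9 of 12, all except those without LPS replicate 1, LPS replicate 2 or late IL-10 replicate 3, with adjusted p up to 0.170. Neither was called by edgeR (0.0888 and 0.0954) or DESeq2 (0.152 and 0.0556).

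Per kb of summed region width, the order of the mean signal differed between groups. This width counts every region of a gene, also those at the floor in a group, so the order depends on it. With LPS, Nos2 region 3 alone had 50.8 per kb, where the Nos2 sum had 26.0. With late IL-10, Slc7a2 had 82.2 ± 51.3 per kb, Ass1 68.8 ± 10.96, Arg2 62.5 ± 15.1, Nos2 56.1 ± 28.5 and Arg1 24.8 ± 2.14 (SD, n = 3 each), and the libraries of each pair of neighbours in this order overlapped. With continuous IL-10, Arg1 was first at 74.2 ± 16.8 per kb, ahead of Slc7a2 at 52.7 ± 29.3 and Arg2 at 49.1 ± 6.52, followed by Nos2 at 36.9 ± 22.7 and Ass1 at 36.6 ± 10.1, again with overlap between all neighbours. With LPS, Slc7a2 was first at 108 ± 66.7 and Arg1 last at 9.63 ± 2.75 per kb, with Ass1, Nos2 and Arg2 at 55.4, 26.0 and 22.9 between them, and here, too, all neighbours overlapped. Untreated, Arg2 was first at 45.4 ± 4.66 and Arg1 next at 17.4 ± 4.55 per kb, without overlap between them. Nos2 followed at 3.52, below all Arg1 libraries, and its libraries overlapped those of Slc7a2 at 1.72 per kb, which overlapped those of Ass1 at 1.59. Replicate 3 was the lowest library in all 3 LPS-treated groups at Nos2, Arg2 and Slc7a2, in 1 of them at Arg1 and in none at Ass1. Whether that library difference shares a source with the pool or with sequencing depth was not tested.

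The wider arginine and nitric oxide pathway was taken as 36 further genes in 5 lists, of which 33 had a region and 29 passed the filter. With LPS over untreated, none of the 29 was higher, where the background was 14.2% of all genes, and 5 were lower, where it was 13.3%. The genes tested had a median log2 change of -0.45 where that of all genes was -0.11. The count of 0 was 1 at an unadjusted p under 0.05 and 0 with edgeR and DESeq2. Slc7a7, which encodes a subunit of a cationic amino acid exporter, averaged 1230 ± 170 with LPS and 3395 ± 307 untreated, a limma log2 change of -1.47 (adjusted p = 5.59e-04) that held in all 12 fits leaving out 1 library. Azin1, the antizyme inhibitor that favours polyamine synthesis, changed by -0.97 (limma adjusted p = 0.00949, and 0.0509 without LPS replicate 1), and Nostrin, a protein that binds endothelial nitric oxide synthase, by -1.88 (0.0130, and 0.0518 without LPS replicate 1). Oaz2, an ornithine decarboxylase antizyme, changed by -2.15 (limma adjusted p = 0.0315). That call was lost when LPS replicate 2 or any single untreated library was left out, with adjusted p up to 0.148. Nos3, the endothelial nitric oxide synthase gene, changed by -1.55 (limma adjusted p = 0.0305), and its single region is shared with Abcb8 and Atg9b. Its call was lost when LPS replicate 1, LPS replicate 2 or any single untreated library was left out, with adjusted p up to 0.138. The replicate block gave 8 lower genes, and so did the fit without LPS replicate 3.

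None of the 29 passed the test with either IL-10 schedule over LPS or between the schedules. The background of higher and lower genes was 2.59% and 3.17% for continuous IL-10 over LPS, 3.19% and 0.26% for late IL-10 over LPS, and 1.88% and 0.668% for late over continuous IL-10. At an unadjusted p under 0.05, continuous IL-10 over LPS had 3 higher and 3 lower, late IL-10 over LPS 2 and 1, and late over continuous IL-10 1 and 1. On recovered reads DESeq2 called 3 higher and 2 lower for continuous IL-10, and 2 higher and 1 lower for late IL-10, while edgeR called 1 lower for continuous IL-10 and 1 higher for late IL-10, and neither tool called any between the schedules. Gch1, which makes the tetrahydrobiopterin cofactor of NOS2, was at 1223 ± 235 with LPS and 938 ± 130 untreated (limma log2 change 0.37, adjusted p = 0.410), and none of the 6 tetrahydrobiopterin genes passed the test in any contrast. The urea cycle list had 3 genes tested and none called.

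For each gene, the genes with the most similar course over the 12 libraries were found by the root mean square difference of their centred log2 sums, as a description across 12 libraries whose differences in depth bear on every gene. Nos2 was nearest to Psma6 (0.339), Trmt2b (0.350) and Cldn10 (0.385), where the median over all genes was 1.83. Psma6, a proteasome subunit gene, had sums averaging 12331 with late IL-10, 9234 with continuous IL-10, 7261 with LPS and 962 untreated. Arg1 was nearest to Trim72 (0.448), Sirpb1c (0.481) and Gm5150 (0.532), with a median of 1.35 over all genes. Sirpb1c averaged 1686 with late IL-10, 2849 with continuous IL-10, 371 with LPS and 907 untreated. Arg2 was nearest to Pde4d (0.260), Fcgr3 (0.263) and Plcb1 (0.280), with a median of 1.10. Ass1 was nearest to Astl and Dusp2, which had identical sums (0.697), and to Serinc2 (0.715), with a median of 2.54. Slc7a2 was nearest to Zbtb7c (0.573), 3425401B19Rik (0.611) and Dcbld2 (0.624), with a median of 2.74.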

How the data were processed

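H3K27ac immunoprecipitates of 12 libraries, 3 per group, were analysed, and the input library was not used here. The deposited signal per consensus region was made by the authors. The submitters' processing notes name Trim Galore, Bowtie2, MACS2, DiffBind and mm10, while their versions, settings and scaling are not stated in what was used here. From the values, 100% were whole multiples, within 0.0001 reads, of 1 factor per library. Between 19.7% and 29.9% of the regions in a library were at 1 read, and a median region had 18 to 89 reads. Such floors and counts cover counting error only, and whether input was subtracted before the floor is not known. Coordinates are printed as deposited.

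Regions were assigned to genes with the RefSeq table of GRCm38.p6, by overlap with the body of a protein-coding gene or, failing that, to the nearest within 100 kb, and summed per gene. As the values are scaled signal, limma 3.58.1 (R 4.3.3, trend and robust options) was fitted to log2(value + 1) over all 12 libraries with group as the factor. Regions or genes with a mean log2 above the 10th percentile were tested, and Benjamini-Hochberg adjustment ran over all 36621 regions or 13482 genes. Fold changes on this scale understate changes of low regions. A fold against a group with all libraries at 3 reads or fewer was taken against the mean value of 3 reads per library. On recovered reads edgeR 4.0.16 (quasi-likelihood, TMM) and DESeq2 1.42.0 were alternatives, beside a pseudocount of 8, no filter, median centring, a replicate block, only the 2 groups compared, only overlapping regions, and each library left out. The limma fit for LPS over untreated was tested on simulated data, with changes placed in regions of above-median signal. The alternatives, the IL-10 contrasts and changes in regions at the floor were not tested in that way. Tables and plots used Python 3.11.15, pandas 2.3.3, numpy 2.4.6 and matplotlib 3.10.9.

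The series describes 3 pools. Over the 12 pairs of same-numbered libraries in compared groups the deviations from group means correlated at 0.149 to 0.712. Over the 24 pairs with different numbers in these groups the correlation was -0.584 to 0.371, so the ranges overlapped. The numbers were taken as pairs only in the replicate block and in the ratios within replicate numbers, although no label ties a number to a pool. The main limma fit did not use them. The 5 genes, the pathway and marker lists and the tests were chosen with earlier results of these data known. Named genes are the 5 members, up to 4 called genes per pathway list with the largest change, and the 3 nearest genes by course. Markers named as called, Gch1 and the flanking regions were added after their values were seen.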

Additional observations from a re-analysis of the deposited data

Results flagged for a closer look

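Arg1 was set apart because its H3K27ac differed between the IL-10 schedules in a direct test. Arg1 region 2 averaged 72.8 ± 33.9 with late IL-10 and 558 ± 62.7 with continuous IL-10 (SD, n = 3 each), a limma log2 difference of -3.02 (adjusted p = 0.0135 over all regions). It was lower with late IL-10 in 3 of 3 replicate numbers. The Arg1 sum over 4 regions averaged 1241 ± 107 with late IL-10 and 3705 ± 841 with continuous IL-10, a limma log2 difference of -1.56 (adjusted p = 0.0212 over all genes), and was likewise lower in 3 of 3. Both calls were lost when single libraries of these groups were left out, with adjusted p up to 0.0786 for region 2 and 0.129 for the sum.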

How the results depend on the processing

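The calls of Nos2 region 3, Ass1 region 1 and both Slc7a2 regions (LPS over untreated, higher), Arg1 region 2 (lower), Nos2 region 5 (both IL-10 schedules) and Arg1 regions 1 to 3 (continuous IL-10) kept their direction and stayed past the threshold in all alternatives run. Of 1388 values of single regions and genes under alternatives, 1237 kept direction and side of the threshold, 104 were no longer past it, 23 newly passed it and 24 changed sign, none of these being called in either fit.

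Counts of called regions moved as follows. For LPS over untreated, higher regions numbered 4 and became 7 with edgeR and 7 with DESeq2. Lower regions numbered 2 and became 1 with median centring, edgeR, DESeq2 and only the 2 groups compared, and 1 to 2 with a library left out. For late IL-10 over LPS, higher regions numbered 4 and became 1 with edgeR, 2 with DESeq2 and 1 with only the 2 groups compared, and 1 to 4 with a library left out. For late over continuous IL-10, lower regions numbered 1 and became 2 with pseudocount 8, median centring and DESeq2, and 0 to 2 with a library left out.

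With the replicate block, lower regions for late over continuous IL-10 numbered 3, and pathway genes numbered 8 lower for LPS over untreated, 2 higher and 2 lower for continuous IL-10, 2 higher for late IL-10, and 1 higher and 1 lower for late over continuous IL-10. Nos2 regions 1 and 2 and Arg1 region 1 (LPS over untreated), Arg2 (continuous IL-10) and Arg1 regions 1 and 4 (late over continuous IL-10) were called with the block and not without it, and the block changed no other call of a region or sum of the 5 genes. Over all regions the block raised the calls for continuous IL-10 over LPS to 2719 higher and 3287 lower, where the fit without it gave 1201 and 1186.

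Pathway genes lower with LPS over untreated numbered 5 and became 2 with only the 2 groups compared, and 2 to 8 with a library left out, with 0 to 1 higher. For continuous IL-10 over LPS they numbered 0 and became 3 higher with DESeq2, and lower 1 with median centring, 1 with edgeR and 2 with DESeq2. With a library left out they were 0 to 3 higher and 0 to 1 lower. For late IL-10 over LPS they numbered 0 and became higher 2 with median centring, 1 with edgeR and 2 with DESeq2, and lower 1 with DESeq2, and with a library left out 0 to 1 in each direction.

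Signs turned, without a call, at Nos2 region 1 for continuous IL-10 over LPS, at -0.12 with pseudocount 8, -0.82 with edgeR and -0.78 with DESeq2, where limma gave 0.44. They also turned at Nos2 region 4 for late over continuous IL-10, at 0.014 with edgeR and 0.031 with DESeq2, where limma gave -1.34. With a library left out, the range for continuous IL-10 over LPS was -1.48 to 1.83 at Nos2 region 1, -1.06 to 0.89 at Nos2 region 2, -0.33 to 0.47 at Nos2 region 3, -0.76 to 0.10 at Ass1 region 1, -0.75 to 0.096 at the Ass1 sum and -0.041 to 0.78 at the Nos2 sum. For late IL-10 over LPS it was -0.086 to 1.87 at Nos2 region 2, -0.40 to 2.00 at Nos2 region 4, -1.16 to 0.30 at Slc7a2 region 1, -1.03 to 0.70 at Slc7a2 region 2 and -1.14 to 0.36 at the Slc7a2 sum. For LPS over untreated it was -0.30 to 0.998 at Arg1 region 4, and for late over continuous IL-10 -0.075 to 1.18 at Slc7a2 region 1. The cause was not tested. With only the 2 groups compared, Arg1 region 4 (continuous IL-10), Arg1 regions 1 and 3 (late IL-10), the Arg1 sum in all contrasts except continuous IL-10 over LPS, and Arg2 were not called.

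Median centring moved the median log2 change of all regions for LPS over untreated to 0.19, where it was -0.06. At gene level it gave 361 higher and 226 lower for continuous IL-10 over LPS, where the fit without it gave 349 and 427, and 96 higher and 80 lower for late over continuous IL-10, where that gave 254 and 90. Depth limits the low regions, since 3 reads in LPS replicate 1 are worth more than in any other library.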
